A study of Mus musculus with 8 samples.

Results

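The MCM helicase and origin licensing genes are described here across the conditions of an RNA-seq experiment in mouse bone marrow-derived macrophages (BMDMs). The members were chosen by name, as the 6 subunits of the replicative helicase (Mcm2, Mcm3, Mcm4, Mcm5, Mcm6 and Mcm7), its loaders Cdc6 and Cdt1, the helicase partner Cdc45 and the firing factor Mcm10. All 10 were found among the 55359 genes listed, all 10 were at or above the minimum of a mean of 10 normalized counts, and they were tested together with 16299 other genes. Macrophages (Mϕ) came from the femurs of adult wildtype C57BL/6 mice of both sexes and were differentiated with M-CSF and GM-CSF at 20 ng/mL each. Ctrl samples were left naïve and unstimulated, and LPS samples received 100 ng/mL LPS with 100 U/mL IFNγ for 6 h. Eff samples were efferocytic, that is, they had been co-cultured for 16 h with 5 apoptotic NIH-3T3 fibroblasts per Mϕ and with 10 nM dimerizer, the compound that triggers death of these engineered cells. LPSEff samples received the co-culture and then the same LPS/IFNγ stimulus. There were 2 samples in each of the 4 groups, and CD45+ cells were isolated on beads before RNA extraction. The sources used here do not say whether naïve cells were given dimerizer, or whether the 2 samples of a group came from separate animals, so p-values measure only the spread between these samples, which may be technical.

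Before a cell copies its DNA, the origin recognition complex, Cdc6 and Cdt1 place ring-shaped helicases made of one copy each of Mcm2 to Mcm7 on the chromosomes. This loading, called licensing, takes place in G1, and in S phase Cdc45 and the GINS complex turn the loaded ring into an active helicase with the help of Mcm10. Genes of this pathway are targets of the E2F transcription factors and are expressed mainly in cycling cells, among them Mϕ precursors that grow in M-CSF.

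The sequence before the transcription start is shown for 3 genes whose RNA differed after LPS/IFNγ and which hold E2F letters, and for Mcm10, which holds none. E2F letters were the run TTCCCGC, the run TTCGCGC, the run TTGCCGC or the run TTGGCGC, searched on both strands, where matches on opposite strands may overlap. Each run covers the 250 bases before the start of the canonical GENCODE transcript in GRCm39, 5′ to 3′ on the strand of the gene, and capitals mark the E2F letters. The regions are chr8:75835890-75836139 on the plus strand for Mcm5, chr1:128287453-128287702 on the minus strand for Mcm6, chr11:98798377-98798626 on the plus strand for Cdc6 and chr2:5017630-5017879 on the minus strand for Mcm10.
Mcm5: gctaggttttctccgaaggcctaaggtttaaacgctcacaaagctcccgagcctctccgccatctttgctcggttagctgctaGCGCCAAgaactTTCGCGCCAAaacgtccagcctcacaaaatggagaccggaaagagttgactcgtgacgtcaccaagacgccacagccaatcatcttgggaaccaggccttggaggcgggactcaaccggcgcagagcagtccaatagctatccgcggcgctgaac
Mcm6: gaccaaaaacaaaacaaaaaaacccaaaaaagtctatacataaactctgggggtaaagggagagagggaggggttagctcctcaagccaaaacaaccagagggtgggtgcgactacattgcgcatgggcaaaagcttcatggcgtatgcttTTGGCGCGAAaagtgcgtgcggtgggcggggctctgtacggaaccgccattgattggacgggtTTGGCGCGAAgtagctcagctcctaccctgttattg
Cdc6: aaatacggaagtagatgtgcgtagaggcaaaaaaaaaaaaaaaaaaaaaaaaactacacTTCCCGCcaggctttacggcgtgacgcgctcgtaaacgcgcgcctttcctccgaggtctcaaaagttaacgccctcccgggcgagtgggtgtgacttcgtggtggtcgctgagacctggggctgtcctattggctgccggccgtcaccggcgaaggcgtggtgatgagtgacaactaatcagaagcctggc
Mcm10: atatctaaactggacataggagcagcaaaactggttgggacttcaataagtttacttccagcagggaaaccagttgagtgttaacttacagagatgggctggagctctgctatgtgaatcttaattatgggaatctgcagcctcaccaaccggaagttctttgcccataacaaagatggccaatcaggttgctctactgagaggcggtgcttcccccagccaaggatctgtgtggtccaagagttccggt

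In the window from 250 bases before to 50 bases after the start, E2F letters were found in 6 of the 10 genes (Mcm3, Mcm4, Mcm5, Mcm6, Cdc6 and Cdt1). They were found in 11.2% of the windows of 21757 protein-coding genes and in 15.4% of those of the 12490 protein-coding genes tested. In Mcm6, 2 stretches printed above each hold overlapping matches on both strands, 99 and 36 bases before the start. The letters CCAAT, also on both strands, stood in 7 of the 10 windows against 39.9% of all. TTTGAA, the core letters of the CHR element of late cell cycle genes, stood only in the window of Mcm2, against 17.1% of all. Cdc6, which holds E2F letters in this window, and Mcm2 and Mcm7, which hold none, had the 3 largest differences between LPS and Ctrl given below. Cdc45, which holds none, passed as lower too, while Cdt1, which holds them, did not pass the main test given below. A match is a description of letters and no evidence of a bound site.

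Recovered reads, obtained by dividing each value by the worth of 1 read in its sample, ranged from 3481288 to 12020918 per sample, and the first Ctrl sample was the shallowest. A depth of 3 reads corresponds to 1.73 to 5.71 normalized counts, which is below every value of every member. Macrophage markers (9 genes) were present in all 8 samples, with a summed level of 106438 to 162354 normalized counts and none at 0. Fibroblast markers (12 genes), which the apoptotic NIH-3T3 cells could carry in, reached sums of 189 and 379.9 (Ctrl), 916 and 975 (LPS), 1468 and 2776 (Eff) and 4101 and 4547 (LPSEff). Of the 10 tested, 3 (Col5a1, Pdgfrb and Fbn1) passed as higher in LPS than in Ctrl, although neither group was co-cultured with NIH-3T3 cells. Pdgfrb, for example, had means of 13.4 (Ctrl) and 245 (LPS). Lymphocyte markers (5 genes) summed to at most 15.5 in any sample, and markers of neutrophils and their precursors (6 genes) to at most 288. Dendritic cell markers (5 genes) lay between 2599.9 and 22274, mostly from Itgax and Ccr7. Zbtb46 had means of 221 (Ctrl), 587 (LPS), 169 (Eff) and 324 (LPSEff). Flt3 had means of 51.2, 152, 34.2 and 45.7 in the same order. Neither passed with LPS/IFNγ in naïve or efferocytic Mϕ. Ccr7, which activated Mϕ can express too, passed as higher with LPS/IFNγ in naïve (log2 difference 2.41) and efferocytic Mϕ (2.29; limma, adjusted p = 0.000871 and 0.00119), and its part in the results below was not tested.

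The first question was how LPS/IFNγ affected these genes in naïve and in efferocytic Mϕ. After 6 h of stimulation, 8 of the 10 genes had fallen in naïve Mϕ, to between 18.2% and 47.1% of the mean in Ctrl, and the same 8 had fallen in efferocytic Mϕ, to between 26.1% and 54.5% of the mean in Eff. These were the 6 helicase subunits, Cdc6 and Cdc45. Cdt1 and Mcm10 did not pass the test in either setting, although with samples rescaled to equal totals, which moved the median of all genes to -0.40 and -0.44, Mcm10 passed in both settings (limma, adjusted p = 0.0335 and 0.00556) and Cdt1 in naïve Mϕ (limma, adjusted p = 0.0455). All 10 genes stayed below 0 in both settings under each other scaling tried. With the number of the sample (1 or 2) as a block in the fit, Cdt1 passed in both settings (limma, adjusted p = 0.00396 and 0.0172). The sources used here do not say that this number marks a shared preparation. The test was limma on log2(normalized count + 1), and a gene passed at a Benjamini-Hochberg adjusted p under 0.05 over all genes tested. Of all genes tested, 11.6% passed as lower in LPS than in Ctrl and 8.95% as lower in LPSEff than in Eff. The median log2 fold change of the 10 genes was -1.50 in naïve and -1.22 in efferocytic Mϕ, while the medians over all genes tested were -0.011 and 0.0051. In bulk RNA, fewer cycling cells and less RNA per cell cannot be told apart.

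**Figure D1:**
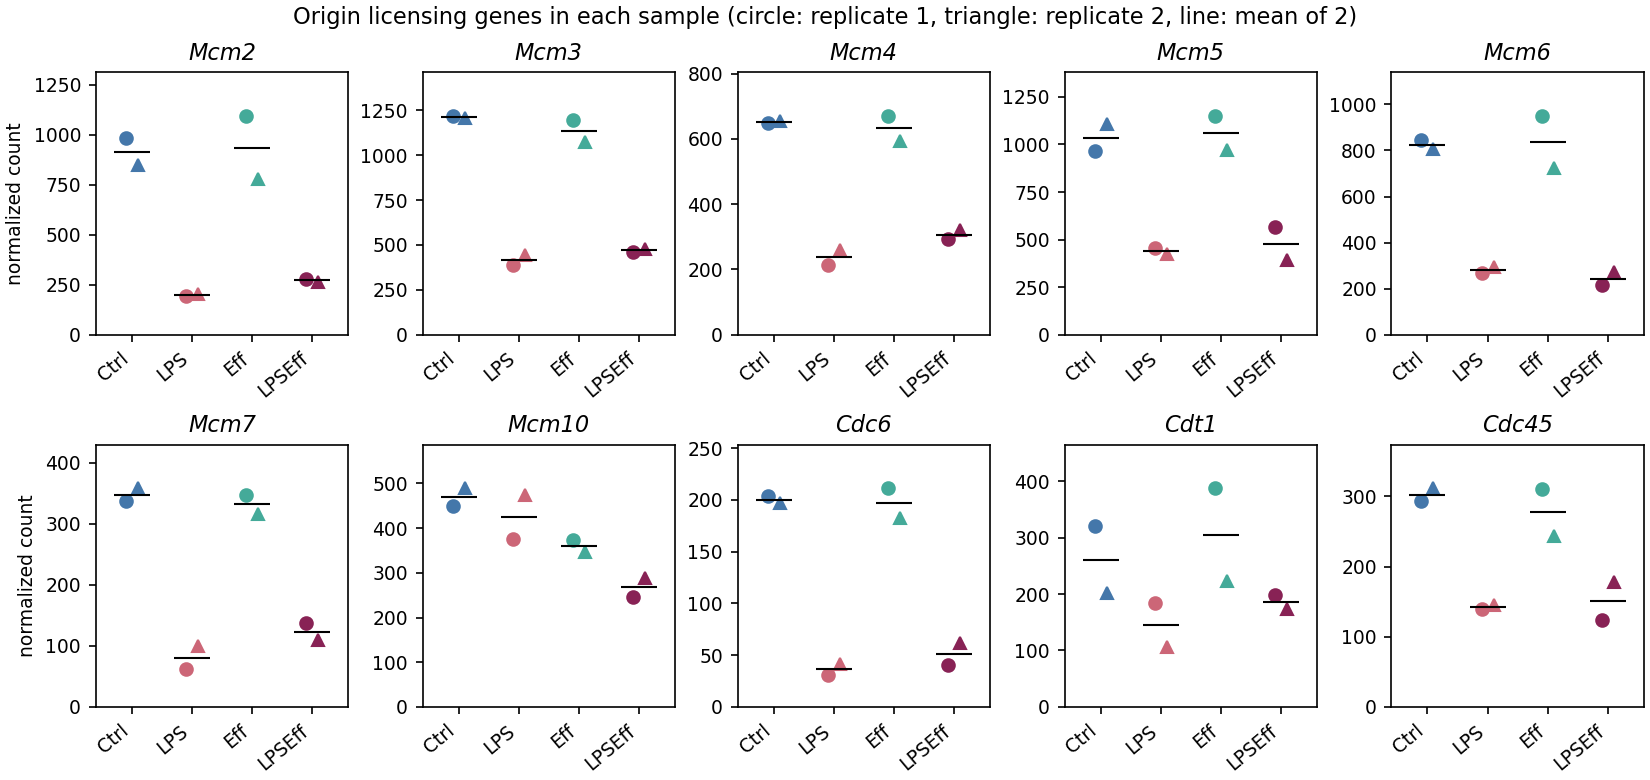
Normalized counts (y axis, from 0) of the 10 genes in each of the 8 samples, by group (x axis), with circles for replicate 1, triangles for replicate 2 and a line at the mean of 2. For the 6 helicase subunits, Cdc6 and Cdc45 the 4 samples with LPS/IFNγ lie below the 4 without, for example at 31.0 to 62.2 against 182 to 211 for Cdc6, whereas the groups of Mcm10 lie closer together.

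Among the helicase subunits, Mcm2, whose protein is phosphorylated by the Dbf4-dependent kinase at origin firing, had normalized counts of 981 and 846 (Ctrl), 194 and 203 (LPS), 1093 and 776 (Eff) and 278 and 265 (LPSEff). Every stimulated sample was below every unstimulated one, and the 2 LPS samples were the lowest of all. Mcm2 fell by 2.19 ± 0.21 (SE, n = 2 per group) on the log2 scale in naïve Mϕ (limma, adjusted p = 0.000317) and by 1.76 ± 0.21 in efferocytic Mϕ (limma, adjusted p = 0.000953), and among the subunits its difference in naïve Mϕ was the largest. Mcm7, a subunit of the catalytic core, had normalized counts of 337 and 358 (Ctrl), 62.1 and 99.5 (LPS), 347 and 316 (Eff) and 137 and 109 (LPSEff). Both LPS samples lay below both LPSEff samples, and all 4 lay below the unstimulated ones. Its log2 level fell by 2.13 ± 0.26 in naïve Mϕ (limma, adjusted p = 0.00103) and by 1.43 ± 0.26 in efferocytic Mϕ (limma, adjusted p = 0.00712).

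Mcm4 and Mcm6 form the catalytic core of the ring with Mcm7. Mcm4 had normalized counts of 649 and 655 (Ctrl), 215 and 259 (LPS), 670.4 and 595 (Eff) and 293 and 321 (LPSEff). Mcm6 had normalized counts of 844 and 808 (Ctrl), 268 and 292 (LPS), 949.9 and 723 (Eff) and 215 and 270.3 (LPSEff). In both genes the stimulated and unstimulated samples were far apart, and of the 6 subunits only Mcm6 had a lower mean in LPSEff than in LPS. The log2 differences of Mcm4 were -1.46 ± 0.18 in naïve and -1.04 ± 0.18 in efferocytic Mϕ, and those of Mcm6 were -1.56 ± 0.21 and -1.78 ± 0.21 (limma, adjusted p between 0.000868 and 0.00605 for these 4 tests).

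Mcm3 and Mcm5 are neighbours in the ring, and the gate between Mcm5 and Mcm2 opens to let DNA in. Mcm3, which had the highest counts of the set in Ctrl, had normalized counts of 1219 and 1209 (Ctrl), 389 and 445 (LPS), 1199 and 1072 (Eff) and 462 and 476 (LPSEff). Mcm5 had normalized counts of 964 and 1109 (Ctrl), 455 and 425 (LPS), 1149.7 and 969.7 (Eff) and 566 and 391 (LPSEff). Again no stimulated sample reached an unstimulated one, although the 2 LPSEff samples of Mcm5 differed more from each other than the 2 LPS samples did. The log2 differences of Mcm3 were -1.54 ± 0.17 in naïve and -1.27 ± 0.17 in efferocytic Mϕ, and those of Mcm5 were -1.23 ± 0.22 and -1.16 ± 0.22 (limma, adjusted p between 0.000563 and 0.00809).

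Of the loaders, Cdc6, the ATPase that recruits the helicase to the origin recognition complex, had the largest difference of the whole set. It had normalized counts of 204 and 197 (Ctrl), 31.0 and 41.6 (LPS), 211 and 182 (Eff) and 40.4 and 62.2 (LPSEff). Stimulated samples of both settings were far below all unstimulated ones. Its log2 level fell by 2.44 ± 0.29 in naïve Mϕ (95% interval of the difference -3.10 to -1.78; limma, adjusted p = 0.000804) and by 1.95 ± 0.29 in efferocytic Mϕ (limma, adjusted p = 0.00267). Cdt1, the loader that delivers the helicase and is held back by geminin, had normalized counts of 319.9 and 202 (Ctrl), 184 and 107 (LPS), 387 and 223 (Eff) and 199 and 173 (LPSEff). All LPS samples were below all Ctrl samples and all LPSEff samples below all Eff samples, but the 2 samples of each unstimulated group differed by a larger ratio than for any other member. The log2 difference was -0.86 in naïve Mϕ (95% interval -1.70 to -0.0068; limma, adjusted p = 0.138) and -0.66 in efferocytic Mϕ (95% interval -1.51 to 0.19; limma, adjusted p = 0.263).

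Cdc45, which joins the loaded ring to form the active helicase, had normalized counts of 293 and 312 (Ctrl), 139.7 and 145 (LPS), 311 and 243 (Eff) and 124 and 178 (LPSEff). The 2 LPS samples were close together and below every unstimulated sample. Cdc45 fell by 1.08 ± 0.24 on the log2 scale in naïve Mϕ (limma, adjusted p = 0.0132) and by 0.88 ± 0.24 in efferocytic Mϕ (limma, adjusted p = 0.0338). Mcm10, which acts on the assembled helicase at firing and is no part of the ring, had normalized counts of 449 and 489 (Ctrl), 376 and 474 (LPS), 372 and 347 (Eff) and 247 and 289 (LPSEff). In naïve Mϕ the groups overlapped, since the second LPS sample lay between the 2 Ctrl samples, and in efferocytic Mϕ both LPSEff samples were below both Eff samples. Its log2 difference was -0.15 in naïve Mϕ (95% interval -0.60 to 0.30; limma, adjusted p = 0.644) and -0.43 in efferocytic Mϕ (95% interval -0.88 to 0.025; limma, adjusted p = 0.175).

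Judged by non-overlap alone, 9 of the 10 genes were lower in both LPS samples than in both Ctrl samples (all but Mcm10), against 30.9% of all genes tested. All 10 were lower in both LPSEff samples than in both Eff samples, against 30.4%. Without the first Eff sample, only 4 of the genes (Mcm2, Mcm3, Mcm6 and Cdc6) passed the test in efferocytic Mϕ, while the log2 differences of Mcm4, Mcm5, Mcm7 and Cdc45 were -0.95, -1.04, -1.36 and -0.71 with limma adjusted p of 0.0562, 0.0661, 0.0530 and 0.198. The Cdc45 call in naïve Mϕ was also lost without the first Ctrl sample, the second Ctrl sample or the first LPS sample (limma, adjusted p = 0.0617, 0.0764 and 0.0522).

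**Figure D2:**
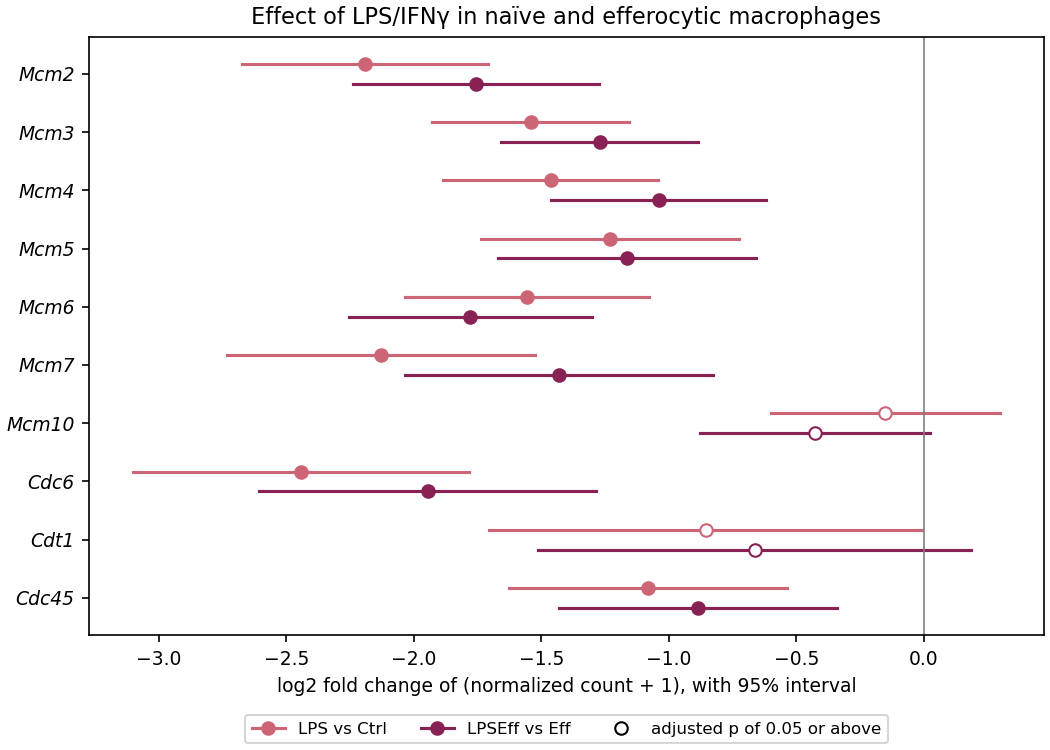
Log2 fold change (x axis) of each gene (y axis) for LPS vs Ctrl and for LPSEff vs Eff, with 95% intervals, where filled points passed the test at an adjusted p under 0.05 and open points did not. The 8 filled genes lie between -2.44 and -0.88, and Mcm10 and Cdt1 are open in both comparisons, whereas with equal totals Mcm10 passed in both and Cdt1 in LPS vs Ctrl. Cdt1 also passed in both comparisons with the number of the sample as a block.

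The second question was whether efferocytosis altered these genes, alone or under LPS/IFNγ. Without stimulation, none of the 10 genes passed the test for Eff vs Ctrl. Their log2 differences lay between -0.38 (Mcm10) and 0.21 (Cdt1), the lowest limma adjusted p was 0.934 (Mcm10), and none had an unadjusted p under 0.05. Over all genes, 0.251% passed in either direction with limma, 1000 had an unadjusted p under 0.05, and edgeR and DESeq2 passed 14 and 207. For the 6 helicase subunits the 95% intervals of the difference ran from -0.67 at the lowest to 0.54 at the highest. Each of these intervals included 0, and with 2 samples per group a difference within the interval of a gene was not excluded. The bounds are not the smallest change that the test could detect. Only Mcm3 and Mcm10 had both Eff samples below both Ctrl samples, which is 2 of 10 against 34.1% of all genes that did not overlap.

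Under LPS/IFNγ, none of the 10 genes passed for LPSEff vs LPS either, where 0.773% of all genes passed with limma, 1679 had an unadjusted p under 0.05, and edgeR and DESeq2 passed 126 and 368. Mcm10 had the largest log2 difference, -0.66 (95% interval -1.11 to -0.21; limma, unadjusted p = 0.00971, adjusted p = 0.247), with both LPSEff samples below both LPS samples. Mcm7 followed with 0.63 (95% interval 0.026 to 1.24; limma, unadjusted p = 0.0428, adjusted p = 0.459). With the number of the sample as a block in the fit, Mcm10 passed for LPSEff vs LPS (limma, adjusted p = 0.0315). In both LPSEff samples, Mcm2, Mcm3, Mcm4 and Mcm7 were above both LPS samples, which with Mcm10 makes 5 of 10 genes without overlap, against 36.3% of all genes tested. The remaining log2 differences were 0.45 for Mcm2 (limma, adjusted p = 0.530), 0.47 for Cdc6, 0.40 for Cdt1, 0.38 for Mcm4, 0.17 for Mcm3, 0.096 for Mcm5, 0.061 for Cdc45 and -0.22 for Mcm6. The fibroblast marker sums given above differed between these groups as well, with 5 of the 10 fibroblast markers tested passing as higher in Eff than in Ctrl and 5 in LPSEff than in LPS, none of the 12 at 0 in both samples of a group, and Dcn and Lum at no more than 3 reads in Ctrl. Their part in the result was not tested.

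**Figure D3:**
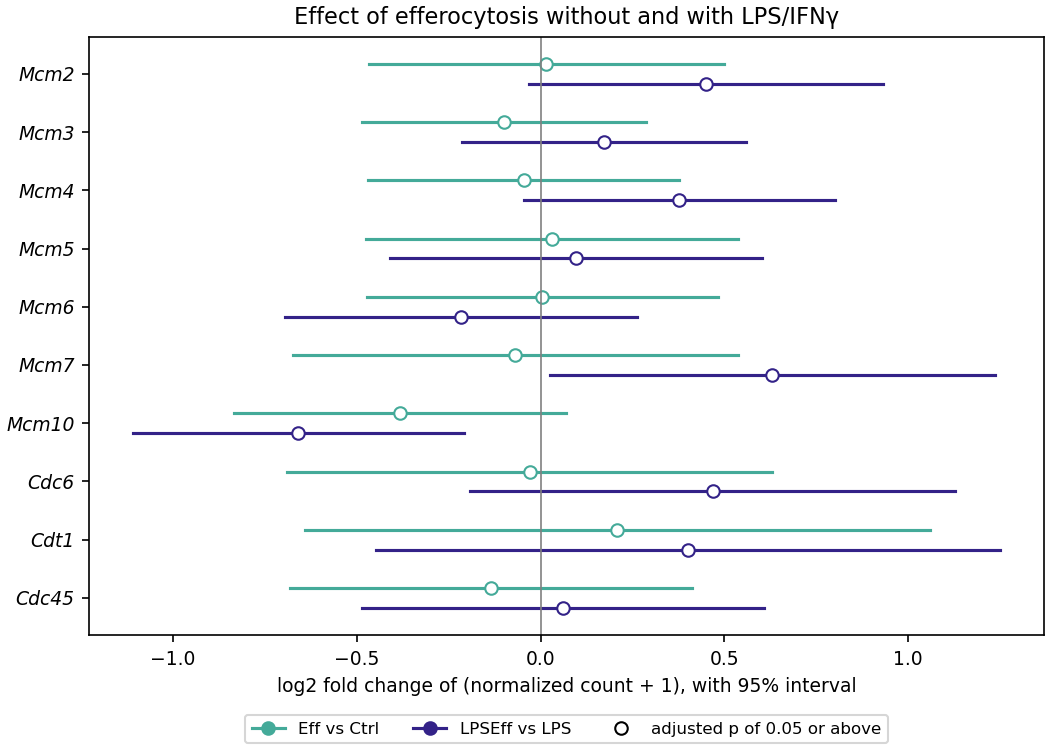
Log2 fold change (x axis) of each gene (y axis) for Eff vs Ctrl and for LPSEff vs LPS, with 95% intervals. All points are open, because no gene passed the test, and only the LPSEff vs LPS intervals of Mcm7 (0.026 to 1.24) and Mcm10 (-1.11 to -0.21) leave out 0. Mcm10 passed in LPSEff vs LPS with the number of the sample as a block.

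Whether the response to LPS/IFNγ itself differed between naïve and efferocytic Mϕ was tested as an interaction. None of the 10 genes passed, as did 0% of all genes, with limma as with edgeR and DESeq2, and 311 of all genes but 0 of the members had an unadjusted p under 0.05 with limma. The largest difference was that of Mcm7, 0.70 on the log2 scale, with a 95% interval from -0.16 to 1.55, so that its smaller difference in efferocytic Mϕ was not separable from the spread between samples. Cdc6 followed with 0.50 and Mcm2 with 0.43, where the 95% intervals were -0.44 to 1.43 and -0.25 to 1.12.

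Levels were compared between genes as normalized counts per kilobase of the canonical transcript. In Ctrl, Mcm6 (278 per kb) and Mcm2 (271) were highest and their samples overlapped, followed by Mcm5 (225) and Mcm3 (223), which overlapped too. By mean, Mcm4 (127), Cdt1 (118) and Mcm7 (117) came next. Cdc45 (104) and Mcm10 (103) followed without a difference beyond their spread. The 2 Cdt1 samples, at 91.2 and 144 per kb, lay on either side of the samples of Cdc45 and Mcm10. Cdc6 (43.4) was lowest. The order in Eff began and ended alike, with Mcm6 (282), Mcm2 (277), Mcm5 (230.3) and Mcm3 (209) at the top and Cdc6 (42.6) at the bottom. In LPS, Mcm5 (95.7), Mcm6 (94.3) and Mcm10 (93.7) overlapped at the top, Mcm2 (58.9) was the sixth, and Cdc6 (7.88) stayed lowest. In LPSEff, Mcm5 (104), Mcm3 (86.4), Cdt1 (83.9), Mcm6 (81.6) and Mcm2 (80.6) each overlapped with the next, and Cdc6 (11.1) was again lowest. By canonical length, Mcm10 went from the ninth place of 10 in Ctrl to the third in LPS. Its own level was 103 ± 6.21 per kb in Ctrl and 93.7 ± 15.2 per kb in LPS (SD, n = 2). All these orders between genes depend on the length used. The merged exons of a gene are longer, for example 7.92 against 3.37 kb for Mcm2 and 10.1 against 4.54 kb for Mcm10. Places by that length can differ and are not given here.

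Within the ring, which holds the 6 subunits in equal number, mRNA levels per kb were not equal. Mcm7 was the lowest and Mcm4 the next lowest of the 6 in all 8 samples, and the highest subunit exceeded the lowest by 2.25-fold to 4.72-fold. The share of Mcm2 in the summed level per kb was 21.8% ± 2.10 (SD, n = 2) in Ctrl and 14.8% ± 0.465 in LPS, and it was 22.3% ± 2.09 in Eff and 17.8% ± 0.0921 in LPSEff. The share of Mcm5 was 18.1% ± 1.94 in Ctrl and 24.1% ± 2.68 in LPS, and 18.7% ± 0.527 in Eff and 22.8% ± 5.06 in LPSEff. Mcm2 had a smaller share in each stimulated sample than in any unstimulated one, whereas for Mcm5 one LPSEff sample, at 19.2%, lay within the unstimulated range of 16.8% to 19.5%. These shares, and the order of the subunits, depend on the transcript length used for each gene and were not tested.

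**Figure D4:**
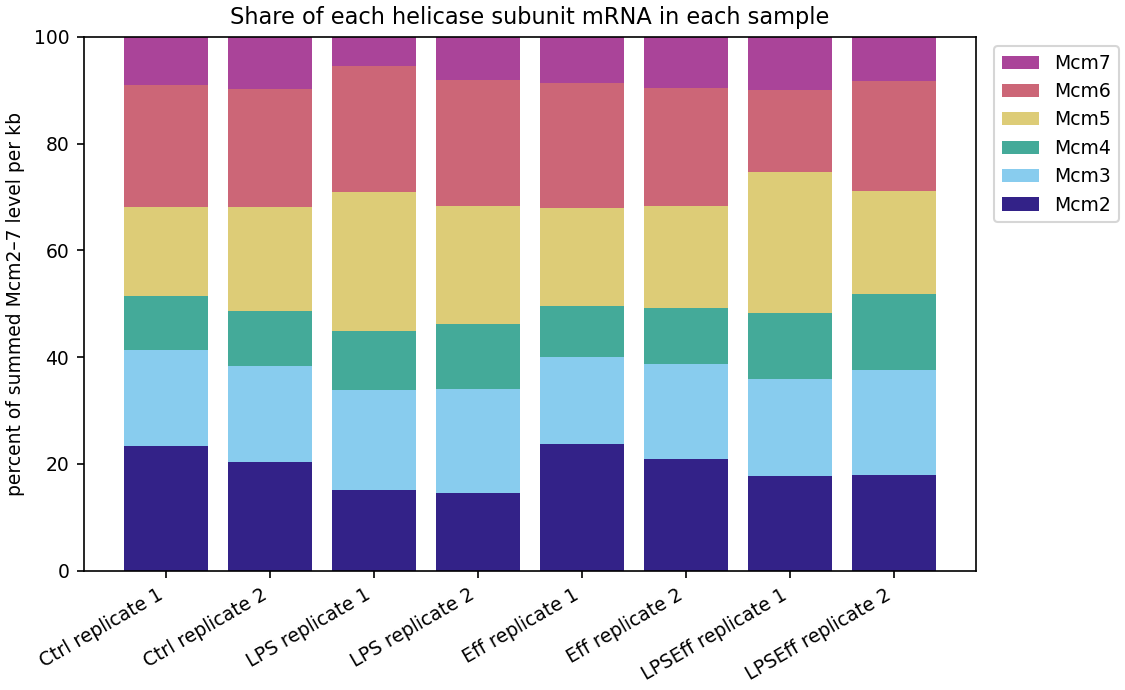
Share of each helicase subunit (colours) in the summed Mcm2 to Mcm7 level per kb (y axis, percent) in each of the 8 samples (x axis). The Mcm2 share is 20.3% to 23.8% in the 4 unstimulated samples and 14.4% to 17.8% in the 4 stimulated ones.

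Cdt1 can also be set against Gmnn, which encodes geminin, the protein that binds Cdt1 and blocks reloading after replication has begun. Gmnn fell with LPS/IFNγ from a mean of 193 to 83.8 normalized counts in naïve Mϕ (log2 difference -1.19 ± 0.29, limma, adjusted p = 0.0197) and from 209 to 83.8 in efferocytic Mϕ (-1.36 ± 0.29, limma, adjusted p = 0.0126). The ratio of Cdt1 to Gmnn per kb was 0.794 and 0.417 (Ctrl), 0.936 and 0.564 (LPS), 0.815 and 0.458 (Eff), and 1.42 and 0.704 (LPSEff). In each setting the ratios of stimulated and unstimulated samples overlapped, although each stimulated sample was above the unstimulated sample of the same number, and the ratio was not tested.

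The genes around licensing were followed with 8 lists, 109 genes in all, of which every gene was tested. In naïve Mϕ 66 of them fell and 6 rose with LPS/IFNγ, where 11.6% of all genes fell and 12.4% rose, and the median log2 difference was -1.17. In efferocytic Mϕ 55 fell and 4 rose, where 8.95% and 10.7% of all genes did, with a median of -1.06. None of the 109 passed for Eff vs Ctrl, for LPSEff vs LPS or for the interaction. These lists and the members were chosen with results of these samples known, so their counts are descriptions.

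Of the 6 genes of the origin recognition complex, which marks origins and receives the helicase, 2 fell in each setting. These were Orc6, from 230.2 to 84.9 in naïve Mϕ (log2 difference -1.48, limma, adjusted p = 0.00714), and Orc2, from 381 to 158 (-1.26, limma, adjusted p = 0.0167). Among 9 licensing regulators and MCM relatives, 5 fell in naïve and 4 in efferocytic Mϕ. The largest differences in naïve Mϕ were those of Fbxo5 (Emi1, an inhibitor of the anaphase-promoting complex; 241 to 35.0, -2.83), Dtl (the substrate receptor that marks Cdt1 for destruction; 337 to 76.5, -2.14) and Skp2 (a ubiquitin ligase subunit; 186 to 59.7, -1.66). Of 15 genes for helicase assembly and origin firing, 10 fell in naïve and 11 in efferocytic Mϕ. They included Ccne2, or cyclin E2 (433 to 104, -2.07), Wdhd1, which links helicase and polymerase (431 to 107, -2.05), and Recql4, needed for firing (100.1 to 24.3, -2.00).

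Downstream of the helicase, 17 of 28 replication fork genes fell in naïve Mϕ and 13 in efferocytic Mϕ. Clspn, the checkpoint mediator claspin, went from 479 to 101 (-2.27), Tipin, a fork protection factor, from 271 to 69.8 (-1.98), and Chaf1b, a histone chaperone subunit, from 238 to 71.5 (-1.76). Timeless, the partner of Tipin, rose instead in naïve Mϕ, from 228 to 489 (log2 difference 1.10, limma, adjusted p = 0.00706), and was at 216 in Eff and 261 in LPSEff (0.30, limma, adjusted p = 0.384). It was chosen after its values were seen, as the single gene of this list that rose. Of 7 nucleotide supply genes, 5 fell in naïve and 3 in efferocytic Mϕ, among them Rrm2, a ribonucleotide reductase subunit (701 to 174, -2.00), and Dut, which removes dUTP (225 to 91.9, -1.32).

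Upstream of licensing, 11 of 19 genes for E2F, RB and G1 cyclins fell and 2 rose in naïve Mϕ, and 10 fell and 1 rose in efferocytic Mϕ. E2f2, an activating E2F, went from 435 to 72.5 (-2.58), and Ccnd1, or cyclin D1, from 2924 to 591 (-2.29). Ccnd2, or cyclin D2, went the other way, from 2515 to 19665 in naïve Mϕ (log2 difference 2.91, limma, adjusted p = 0.00328) and from 1822 to 11134 in efferocytic Mϕ (2.61, limma, adjusted p = 0.00621). Among 7 CDK inhibitors, which restrain the kinases of G1 and S phase, 3 rose in each setting (Cdkn1a, Cdkn1b and Cdkn2b), with Cdkn2b going from 83.6 to 269 (1.64) and Cdkn1a from 3716 to 9856 (1.42) in naïve Mϕ. Cdkn1a did not pass with quantile normalization (adjusted p = 0.121 and 0.0775 in naïve and efferocytic Mϕ, limma), nor Cdkn1b with equal totals (adjusted p = 0.0788 and 0.158, limma), and both stayed above 0. Cdkn2c fell in naïve Mϕ, from 269 to 65.2 (-2.03, limma, adjusted p = 0.000772). Of 18 mitosis genes, 15 fell in naïve and 12 in efferocytic Mϕ, among them in naïve Mϕ the kinetochore gene Cenpf (706 to 169, -2.20), the anaphase activator Cdc20 (239 to 57.7, -2.18) and cyclin B1, Ccnb1 (113 to 29.4, -1.92). Among the genes named in these lists, Orc2, Skp2, Dut, Cenpf, Cdc20 and Ccnb1 did not pass in naïve Mϕ without the first Ctrl, the second Ctrl or the first LPS sample, each in at least 1 of these fits (limma, adjusted p between 0.0567 and 0.186 where the call was lost). All values in these lists are means of 2 normalized counts in Ctrl and then LPS, unless stated otherwise, each with its log2 difference.

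**Figure D5:**
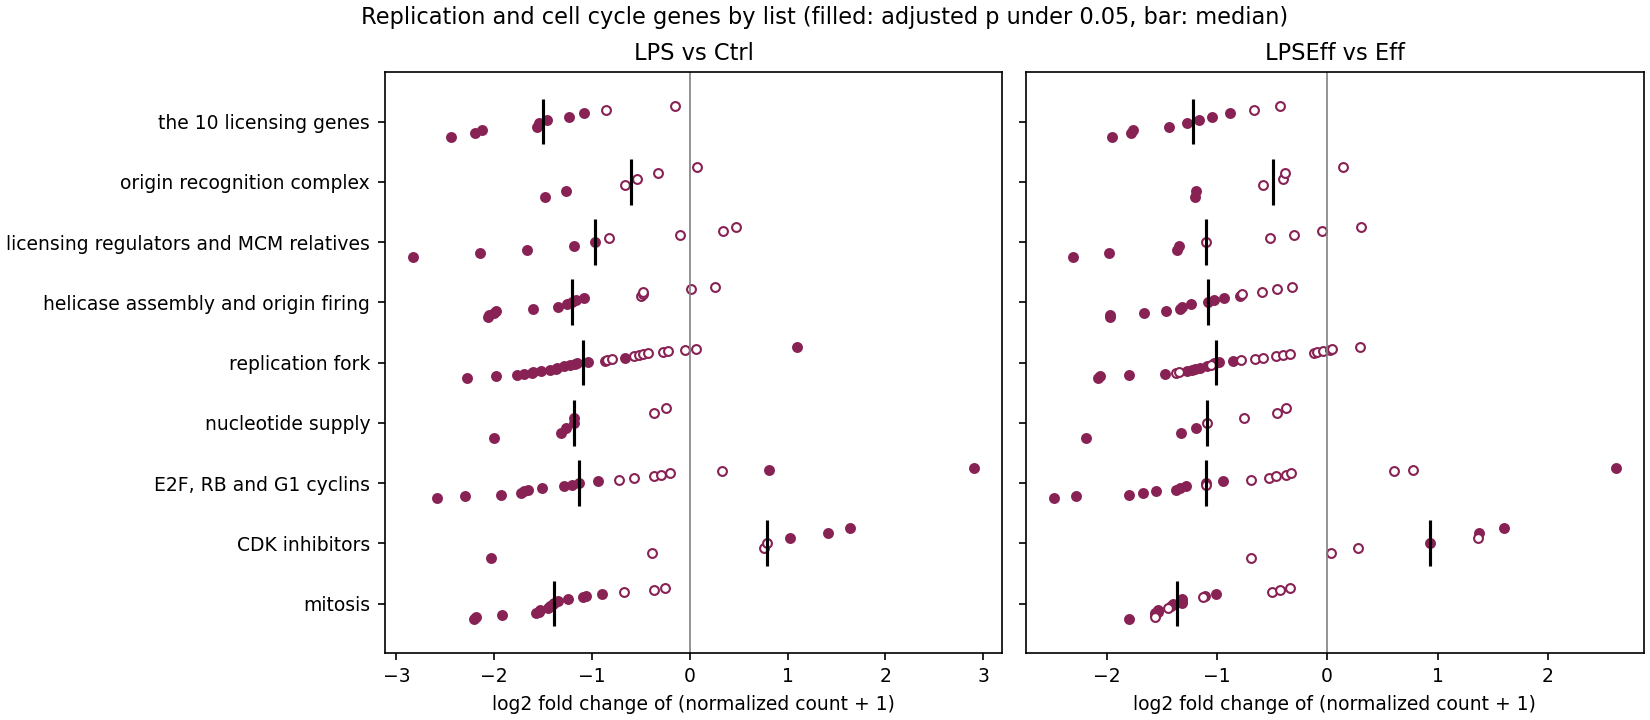
Log2 fold change (x axis) of each gene of the 10 licensing genes and of 8 lists (y axis), for LPS vs Ctrl on the left and LPSEff vs Eff on the right, with filled points for genes that passed the test and a bar at the median of each list. Medians of all lists but the CDK inhibitors lie below 0, and Ccnd2, at 2.91 and 2.61, is the point furthest to the right.

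The members resembled each other across the 8 samples, except for 2 of them. The correlation (Pearson) of a gene's log2 level with the mean of the other 9 was 0.95 to 1.00 for the helicase subunits, Cdc6 and Cdc45, 0.73 for Cdt1 and 0.37 for Mcm10. Among the other 16299 genes tested, those most like the mean profile were Gnpda1 (r = 0.996), Cad, Mat2a, L3mbtl2, Cables1, Abhd5, Rnf166, Eps8, Cdca4 and Pomt1 (r = 0.993), none of which is on the lists above. Eps8 had mean normalized counts of 2298 (Ctrl), 238 (LPS), 2266 (Eff) and 367 (LPSEff). In all, 1413 of these genes (8.67%) had r above 0.9. All points share the same 8 libraries, which fall into a stimulated and an unstimulated cluster, so that r mainly reflects that split.

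Positions and overlaps bear on 2 members. Mcm7 (chr5:138162844-138170684, minus strand, GRCm39) shares 344 exonic bases with Cops6 and 348 with Ap4m1, both on the opposite strand. Mir25, Mir93 and Mir106b lie in its transcribed region on the same strand. Mir25 and Mir93, which share exonic bases with it, had means of 0.685 and 0.343 normalized counts. Cdc45 (chr16:18599195-18631551, minus strand) shares 459 exonic bases, 10.6% of its exon length, with Ufd1 on the opposite strand. Reads from such bases can be told apart only if the counting used the strand, and whether the libraries kept it is not stated in the sources used here. The paper names default parameters for the counting and an adapter ligated to the fragmented RNA before reverse transcription. The other 8 members share no exonic bases with a gene of the annotation.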

How the data were processed

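Total RNA sequencing was done in 8 samples of BMDMs (4 groups of 2). The authors depleted rRNA, trimmed with cutadapt, filtered rRNA reads out (Bowtie2), used STAR for alignment to mm39 and HTSeq for counting, per the labels and the methods (versions and annotation release not given in the sources used here). The deposited unit is a signal called normalized count, which the authors obtained by dividing the reads of a gene by the DESeq2 size factor of its sample, without a filter. In each sample 100% of values were whole multiples of 1 read (tolerance 0.01), which gave the recovered reads. Gene names (98.9% of identifiers), positions and exons came from GENCODE M39 (GRCm39, the same assembly as mm39).

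Samples were grouped by their labels. limma 3.58.1 (R 4.3.3) with a trend was fitted to log2(normalized count + 1), keeping 16309 genes whose mean was 10 or higher, with 4 group means and 4 residual degrees of freedom, so fold changes are on that scale and understate those of low genes. An exact permutation of 2 against 2 samples cannot reach 0.05, so all p-values rest on the spread that limma shares across genes. Contrasts addressed LPS/IFNγ (LPS vs Ctrl and LPSEff vs Eff, which share no sample), efferocytosis (Eff vs Ctrl and LPSEff vs LPS, which share no sample) and their interaction. Other pairs of contrasts share groups. Intervals are 95% intervals of the difference.

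The members and gene lists were chosen with earlier results of these data known. Named were all 10 members, per list up to 3 passing genes of the largest difference in LPS vs Ctrl, every passing gene up to 5 in the efferocytosis contrasts (there was none), and the 10 genes most like the members. A gene that this rule names is not reported here. Alternatives were another pseudocount (0.5 or 5), another minimum mean (any value above 0, or 50), fits of only the compared groups, a replicate block, quantile normalization, equal totals, edgeR 4.0.16 with TMM and DESeq2 1.42.0 on recovered reads, and leaving out each sample. The tests were tested on simulated data. Floors in reads cover counting error only. No protein sequence was used here.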

Additional observations from a re-analysis of the deposited data

How the results depend on the processing

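The number of licensing genes that passed was 8 for LPS vs Ctrl and 7 to 8 without single replicates, and 8 for LPSEff vs Eff and 4 to 8 without single replicates, where 4 came from leaving out the first Eff sample. For Eff vs Ctrl and the interaction it was 0 under every alternative run, the interaction having no value with only the groups compared. Rescaling to equal totals moved the median log2 difference of all genes to -0.40 (LPS vs Ctrl) and -0.44 (LPSEff vs Eff), and then 10 and 9 genes passed, with Mcm10 added in both (adjusted p = 0.0335 and 0.00556) and Cdt1 in the first (adjusted p = 0.0455). All 10 genes stayed below 0 in both LPS/IFNγ comparisons under quantile normalization, equal totals, edgeR and DESeq2. Cdc45 lost its pass in LPSEff vs Eff with genes of a mean above 0 (adjusted p = 0.0724), with only the groups compared (0.0704) and without any of 5 samples (0.0585 to 0.200). Genes named in the lists that lost their pass for LPS vs Ctrl kept their sign. The cause was not tested. Many of these fits had fewer samples, but Cdkn1a lost its pass with quantile normalization, which left out no sample.

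Samples with the same number deviated together from their group means (r = 0.404 to 0.595 across genes for 6 pairs of groups), but the sources used here do not say that a number marks a shared preparation, and 2 numbers cannot settle it. With the number as a block, 9 genes passed for LPS vs Ctrl and 9 for LPSEff vs Eff, with Cdt1 added (adjusted p = 0.00396 and 0.0172), and 1 for LPSEff vs LPS (Mcm10, adjusted p = 0.0315). The block changed no other call of a member.

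Signs turned only for differences that had not passed. Over the fits without a single replicate, the log2 difference of Mcm10 in LPS vs Ctrl ran from -0.32 to 0.016. In Eff vs Ctrl the ranges were -0.23 to 0.26 (Mcm2), -0.13 to 0.040 (Mcm4), -0.092 to 0.15 (Mcm5), -0.19 to 0.20 (Mcm6), -0.14 to 0.077 (Cdc6), -0.19 to 0.61 (Cdt1) and -0.31 to 0.041 (Cdc45), and Cdc6 was at 0.0086 with quantile normalization. In LPSEff vs LPS they were -0.17 to 0.36 (Mcm5) and -0.19 to 0.32 (Cdc45), and in the interaction -0.20 to 0.33 (Mcm5), -0.20 to 0.59 (Cdt1) and -0.060 to 0.45 (Cdc45). Depth was no limit for detection of a member, since the lowest, Cdc6, was at 31.0 normalized counts or more in every sample. With 2 samples per group, differences within the 95% intervals given were not excluded.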

Other observations

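Cdt1 was higher in the sample numbered 1 than in the sample numbered 2 in all 4 groups, at 320 against 202 normalized counts in Ctrl, 184 against 107 in LPS, 387 against 223 in Eff and 199 against 173 in LPSEff. Itgax, a dendritic cell marker, showed the opposite order in all 4 groups, at 2386 against 6771, 2150 against 6898, 1317 against 4317 and 1459 against 6035. These values were seen in the data first and were not tested.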
